A study of Pan troglodytes with 6 samples.

Results

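The 111 genes described here belong to families of membrane transporters of sugars, amino acids, carboxylates, vitamins, bile acids, fatty acids, organic ions, peptides and nucleosides. They are the members of 17 solute carrier (SLC) families that the array's annotation names with exactly 1 gene symbol, out of 12584 genes so named. The families are SLC2A, SLC3A, SLC5A, SLC7A, SLC10A, SLC13A, SLC15A, SLC16A, SLC19A, SLC22A, SLC27A, SLC28A, SLC29A, SLC38A, SLC43A, SLC47A and SLCO. SLC22A20P, whose symbol is that of a pseudogene, is counted among the 111. SLC2A6 had a pair of features, of which the brighter over the 6 arrays was used and 1 was set aside. A further 22 features carried several symbols with at least 1 from these families and are not used here, since such a feature cannot be given to 1 gene.

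RNA came from cerebellum (3 arrays) and from liver (3 arrays) of chimpanzees, Pan troglodytes, with no treatment named. By the labels, replicate 1 of each tissue is female and aged 27 years, while the others are male, aged 37 years for replicate 2 and 30 years for replicate 3. Whether a pair of equal number is 1 animal is not stated. The arrays were Affymetrix Human Exon 1.0 ST arrays, whose probes follow human sequence, so a mismatch in chimpanzee RNA can lower 1 gene's signal in both tissues. Each value below is a background-subtracted intensity on a linear scale, and differences are cerebellum minus liver on the scale log2(intensity + 16.8).

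A solute carrier moves its substrate across a membrane by facilitated diffusion, by coupling to a sodium or proton gradient, or by exchange for another solute. Hepatocytes are known for taking up bile acids, drugs, amino acids and nucleosides from portal blood and for releasing glucose. In the brain, entry of glucose and amino acids is controlled at the blood-brain barrier, and neurons and astrocytes pass glutamine and lactate between each other. Families often hold several genes with like substrates that are used by different tissues.

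The tissues carried their own markers. By limma at an adjusted p under 0.05, cerebellum had the higher level for all 7 granule and Purkinje neuron markers, and liver had it for all 6 hepatocyte markers measured. The summed level of the neuron markers was 13099.5 to 14280 in cerebellum and 181 to 295 in liver, while hepatocyte markers summed to 75.2 to 126 in cerebellum, against 17483 to 22828 in liver. Of the other marker lists, 3 of 4 astrocyte, 3 of 3 oligodendrocyte and 1 of 6 choroid plexus genes were higher in cerebellum. Toward liver, 6 of 8 vessel, 6 of 7 macrophage, 3 of 6 choroid plexus, 1 of 3 red cell and 1 of 5 bile duct genes were higher. Which cells of either tissue gave the levels of these markers was not tested. Across all features the arrays of cerebellum correlated with each other at 0.947 to 0.977 (Pearson's r) and those of liver at 0.906 to 0.950. All 6 arrays hold the same set of 15143 values, with a median of 96.3, so differences are relative to the other genes of an array. In tissue RNA a lower level can reflect fewer cells of a type or less RNA per cell, which cannot be told apart.

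On the deposited scale fewer of these transporters were higher in cerebellum than in liver, an order that turned round when the arrays were aligned on general genes. Of the 111 genes, 18 had the higher level in cerebellum and 41 had it in liver (limma with Benjamini-Hochberg adjustment over all 15143 features, adjusted p under 0.05), and 52 did not pass. Over all features, 26.7% were higher in cerebellum and 23.9% in liver, together 50.6%, while the shares of the transporters were 16.2% and 36.9%. The median difference was -0.22 over the transporters and 0.04 over all features. With a difference of at least 2-fold, 11 were higher in cerebellum and 35 in liver, against 17.2% and 15.8% of all features. Beyond 3 on the log2 scale, 4 lay toward cerebellum and 16 toward liver, against 2.67% and 3.56% of all features. The 3 cerebellum values all exceeded the 3 liver values for 24 transporters, and the reverse held for 42, where the shares over all features were 31.0% and 28.5%.

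How many genes fall on each side depends on the scaling of the arrays. Aligning the arrays on 113 genes of ribosomal proteins, the proteasome and oxidative phosphorylation moved the median difference of all features from 0.04 to 0.60. On that scale 42 transporters were higher in cerebellum and 31 in liver, or 37.8% and 27.9%, while 49.7% and 13.7% of all features were. The liver share of the transporters was thus above that of all features, and the cerebellum share below it, on both scales. Each call toward liver that the alignment ended is named with its gene. In cerebellum and in liver it gave 7 and 2 called sugar genes, 13 and 9 for amino acids, 5 and 5 for carboxylates, vitamins and choline, 5 and 5 for bile and fatty acids, 9 and 6 for organic ions and 3 and 4 for peptides and nucleosides. The alignment added 24 calls, all toward cerebellum, with differences on the aligned scale from 0.58 to 1.40. They were those of SLC2A5, SLC2A6, SLC2A11, SLC2A13, SLC5A8, SLC5A11, SLC7A3, SLC7A4, SLC7A10, SLC10A2, SLC10A4, SLC10A6, SLC13A1, SLC13A2, SLC22A11, SLC22A20P, SLC27A6, SLC29A4, SLC38A2, SLC38A5, SLC43A2, SLC47A2, SLCO3A1 and SLCO4A1.

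The size of a difference depends on the pseudocount of 16.8 where 1 tissue lies below it. This held on all 3 arrays of the lower tissue for 11 called genes, namely SLC7A11 and SLCO1C1 in liver and SLC2A2, SLC38A4, SLC27A2, SLC28A1, SLC16A12, SLC7A7, SLC15A1, SLCO4C1 and SLCO6A1 in cerebellum. For these the sign and not the size is measured, and the standard error leaves the choice of pseudocount out. At pseudocounts of 4.20 and 38.3 the difference was -7.48 and -5.74 for SLC2A2, -7.31 and -4.90 for SLC38A4, -6.19 and -4.43 for SLC27A2 and 4.10 and 2.47 for SLC7A11.

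**Figure D1:**
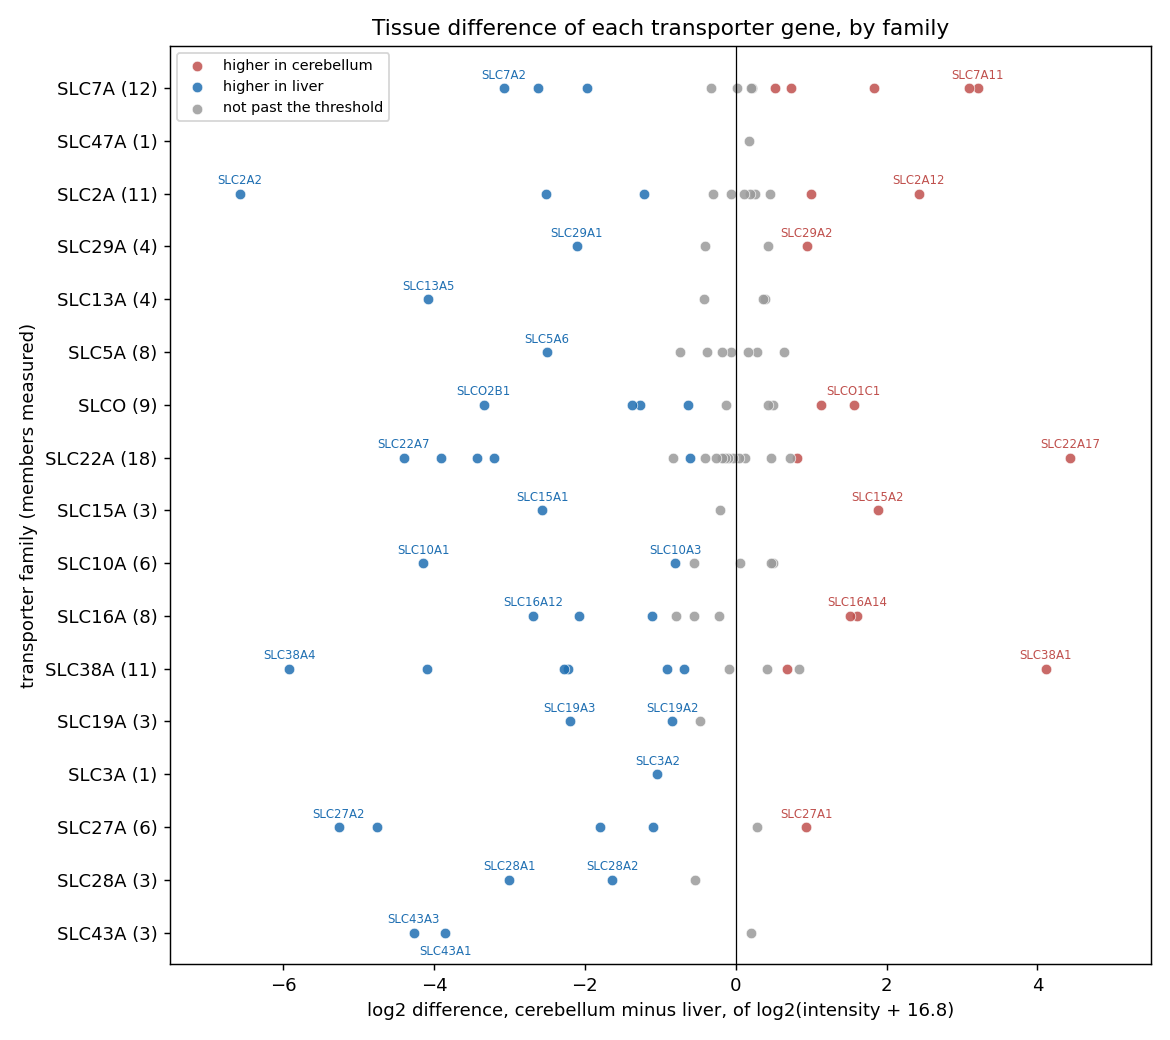
Log2 difference (cerebellum minus liver) of each of the 111 transporter genes, 1 row per family with its number of members, coloured by whether the gene was higher in cerebellum, higher in liver or not past the adjusted p of 0.05. SLC2A2 lies farthest toward liver at -6.58 and SLC22A17 farthest toward cerebellum at 4.44, and 9 of the 17 families have members called on both sides of 0.

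Sugar transporters were called in both directions. Of 14 measured genes for sugars and polyols, 2 were higher in cerebellum, 3 in liver and 9 did not pass, with a median difference of 0.14. The called shares were 14.3% and 21.4%, against 26.7% and 23.9% of all features. The gene farthest toward liver, under every alternative tried, was SLC2A2, which encodes GLUT2, the low-affinity glucose carrier through which hepatocytes take up and release glucose. It was at 13.2, 6.37 and 11.9 in cerebellum, against 3023, 2325 and 2398 in liver, and every liver value was far above every cerebellum value (difference -6.58, standard error 0.19, adjusted p = 1.51e-07, with a size set in part by the pseudocount). SLC2A10, which encodes GLUT10, was at 23.6, 21.8 and 20.9 in cerebellum, against 272, 173 and 183 in liver (difference -2.51, standard error 0.20, adjusted p = 1.65e-05). The groups did not overlap and liver replicate 1 was the highest. SLC2A7, a hexose carrier known from the human intestine, was at 78.9, 133 and 107 in cerebellum, against 302, 410.2 and 149 in liver (difference -1.22, standard error 0.34, adjusted p = 0.0169). Its lowest liver value lay just above its highest cerebellum value. SLC2A7 lost its call when cerebellum array 1, or liver array 1 or 2, was left out (adjusted p 0.0509 to 0.0650) and after the alignment on general genes (difference -0.66, adjusted p = 0.106).

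Toward cerebellum, SLC2A12, which encodes GLUT12, was at 323, 204 and 284 in cerebellum, against 17.9, 37.97 and 59.8 in liver (difference 2.43, standard error 0.30, adjusted p = 2.25e-04). The tissues did not overlap, and both varied among animals. SLC2A1 encodes GLUT1, the glucose carrier of the blood-brain barrier and of red cells, and was at 183, 336 and 179.8 in cerebellum, against 130.2, 86.6 and 98.8 in liver (difference 0.99, standard error 0.27, adjusted p = 0.0135). Cerebellum replicate 2 stood above the other 2 cerebella. SLC2A1 lost its call when liver array 2 was left out (difference 0.88, adjusted p = 0.0538). All 8 blood vessel markers were likewise highest in cerebellum replicate 2 among the cerebella, with summed levels of 332, 579.5 and 307, and 3 of 4 astrocyte markers were too. So were 5 of 7 neuron, 4 of 6 choroid plexus, 4 of 7 macrophage, 4 of 6 hepatocyte and 3 of 5 bile duct markers, but 0 of 3 oligodendrocyte and 1 of 3 red cell markers. Their part in the level of SLC2A1 was not tested. The same vessel markers summed to 2877, 2491 and 2497 in liver, and 6 of the 8 were higher there. MFSD2A and ABCB1 had the largest liver means of these, at 959 and 587, and which liver cells these levels come from was not tested. CLDN5 and VWF did not pass (limma, adjusted p = 0.463 and 0.117).

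Among sugar genes that did not pass, SLC2A8, an intracellular carrier, had the highest mean and was at 119.6, 111 and 114 in cerebellum, against 138, 127 and 99.6 in liver (difference -0.06, standard error 0.17, adjusted p = 0.795). SLC5A1, the sodium-coupled glucose carrier SGLT1, missed the threshold most narrowly of all 111 genes, at 13.7, 14.9 and 14.7 in cerebellum, against 16.6, 55.4 and 41.7 in liver (difference -0.74, standard error 0.28, adjusted p = 0.0523). Liver replicate 1 lay close to the cerebella and the other 2 livers above them. SLC5A1 passed the threshold when liver array 1 was left out (difference -1.06, adjusted p = 0.00270), at a pseudocount of 4.20 (difference -1.05, adjusted p = 0.0438) and with a robust, trended variance prior (adjusted p = 0.0464). The inositol carriers SLC2A13 and SLC5A11 differed by 0.11 and 0.65 (adjusted p = 0.597 and 0.139). SLC5A11 had 116, 44.7 and 62.9 in cerebellum, in the order of the oligodendrocyte marker sums of 4884, 1159 and 1752. Those sums were mostly MBP (4297, 966 and 1481). UGT8 had the same order, while MAG was lowest in replicate 3 (145, 82.2 and 69.5). The part of oligodendrocytes in the level of SLC5A11 was not tested. SLC2A5, SLC2A6, SLC2A11, SLC5A4 and SLC2A4, the last an insulin-responsive carrier of muscle and fat, had differences from -0.30 to 0.46 with adjusted p from 0.194 to 0.703.

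Amino acid transporters had the most calls, with 7 higher in cerebellum and 12 higher in liver of 27, while 8 did not pass. Their shares toward cerebellum and liver were 25.9% and 44.4%, against 26.7% and 23.9% of all features, and their median difference was -0.08. Within the SLC38A family, the sodium-coupled neutral amino acid carriers, genes differed strongly in opposite directions. SLC38A1, which supplies neurons with glutamine, was at 1732, 2215 and 2020 in cerebellum, against 48.2, 51.9 and 330.4 in liver (difference 4.11, standard error 0.57, adjusted p = 4.31e-04). All cerebella lay above all livers, and liver replicate 3 was far above the other 2. Without liver replicate 3 the difference was 4.90 (adjusted p = 1.56e-06). SLC38A4, known from liver, was at 3.05, 3.53 and 3.70 in cerebellum, against 1657, 1439 and 729 in liver (difference -5.92, standard error 0.29, adjusted p = 1.08e-06, with a size set in part by the pseudocount). Its cerebellum values were close to 0 and liver replicate 3 was the lowest liver. SLC38A3, a glutamine carrier of hepatocytes and astrocytes, was at 40.7, 75.8 and 49.4 in cerebellum, against 1250, 1168 and 1144 in liver (difference -4.09, standard error 0.21, adjusted p = 1.29e-06), with livers that lay close together.

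The other SLC38A genes differed less. SLC38A10 and SLC38A11 were higher in liver, with differences of -2.23 and -2.28 (adjusted p = 8.61e-06 and 0.00101). SLC38A7, a lysosomal glutamine carrier, was at 71.1, 51.8 and 53.7 in cerebellum, against 122, 121 and 129.9 in liver (difference -0.91, standard error 0.17, adjusted p = 0.00234). SLC38A7 lost its call after the alignment on general genes (difference -0.35, adjusted p = 0.179). SLC38A12 was at 89.6, 63.9 and 93.9 in cerebellum, against 148, 147 and 129.8 in liver (difference -0.68, standard error 0.18, adjusted p = 0.0141). SLC38A12 lost its call after the alignment on general genes (difference -0.12, adjusted p = 0.655). SLC38A6 was the second SLC38A gene higher in cerebellum, at 105, 102 and 98.96 in cerebellum, against 49.1, 46.9 and 79.5 in liver (difference 0.68, standard error 0.20, adjusted p = 0.0208). SLC38A6 lost its call when cerebellum array 1 or 3, or liver array 1 or 2, was left out (adjusted p 0.0578 to 0.0751). SLC38A2, a carrier that rises when cells lack amino acids, had the highest mean of the amino acid genes that did not pass and was at 2473, 1442 and 1880 in cerebellum, against 1454, 1288 and 1507 in liver (difference 0.41, standard error 0.22, adjusted p = 0.155). SLC38A2 passed the threshold when cerebellum array 2 was left out (difference 0.60, adjusted p = 0.0441) and after the alignment on general genes (difference 0.97, adjusted p = 0.0117). SLC38A9, an arginine sensor of lysosomes, differed by -0.08 (adjusted p = 0.700). SLC38A5, a glutamine carrier, was at 58.8, 142 and 51.8 in cerebellum, against 35.8, 21.1 and 55.6 in liver (difference 0.84, standard error 0.36, adjusted p = 0.0824), with cerebellum replicate 2 the highest of all 6. SLC38A5 passed the threshold when liver array 3 was left out (difference 1.07, adjusted p = 0.0457) and after the alignment on general genes (difference 1.40, adjusted p = 0.00550).

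SLC43A1 and SLC43A3 were both higher in liver. SLC43A1 encodes LAT3, a facilitative carrier of branched-chain amino acids, and was at 19.8, 13.3 and 20.02 in cerebellum, against 601, 582 and 315 in liver (difference -3.85, standard error 0.26, adjusted p = 6.13e-06). SLC43A3, a purine nucleobase carrier in human that is listed here with its family, was at 27.6, 37.1 and 25.4 in cerebellum, against 776, 1003 and 873 in liver (difference -4.27, standard error 0.18, adjusted p = 5.51e-07). No cerebellum value of either reached a liver value. The third member, SLC43A2, differed by 0.20 (adjusted p = 0.398), and its values overlapped between tissues.

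The SLC7A family divided by tissue as well, with 5 genes higher in cerebellum, 3 higher in liver and 4 not past the threshold. Over all features 26.7% and 23.9% were called toward cerebellum and liver. SLC7A11 encodes the cystine and glutamate exchanger xCT and was at 116, 582 and 147 in cerebellum, against 10.7, 8.03 and 7.39 in liver (difference 3.21, standard error 0.50, adjusted p = 7.69e-04). Cerebellum replicate 2 was by far the highest, and without it the difference was 2.54 (adjusted p = 6.88e-05). SLC7A14, a gene related to the cationic amino acid carriers, was at 263, 558 and 243 in cerebellum, against 27.98, 18.1 and 26.6 in liver (difference 3.09, standard error 0.31, adjusted p = 5.58e-05), again with replicate 2 the highest of the cerebella. The arginine and lysine carriers SLC7A1 and SLC7A2, CAT1 and CAT2, went opposite ways. SLC7A1 was at 169.8, 187 and 178 in cerebellum, against 23.9, 30.6 and 67.1 in liver (difference 1.84, standard error 0.27, adjusted p = 5.54e-04). SLC7A2 was at 97.3, 162 and 49.6 in cerebellum, against 1124, 1492 and 454 in liver (difference -3.08, standard error 0.48, adjusted p = 7.85e-04). Neither gene's tissues overlapped, and liver replicate 3 was the highest liver for SLC7A1 and the lowest for SLC7A2.

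SLC7A7, a light chain that exports arginine and is also known from macrophages, was at 11.5, 12.8 and 12.2 in cerebellum, against 110.3, 102 and 356 in liver (difference -2.62, standard error 0.40, adjusted p = 7.22e-04). Liver replicate 3 was the highest liver. All 7 macrophage and microglia markers were highest in that liver too. They summed to 207 to 374 in cerebellum, against 2735, 2673 and 5222 in liver replicates 1, 2 and 3. For P2RY12 the margin was small, at 62.7 against 61.9 in replicate 2. Also highest there were 4 of 5 bile duct, 5 of 8 vessel, 2 of 3 red cell and 3 of 6 choroid plexus markers. So were 2 of 4 astrocyte, 2 of 6 hepatocyte and 2 of 7 neuron markers, but 0 of 3 oligodendrocyte markers. The part of any of these cell types in the level of SLC7A7 was not tested. SLC7A9, a light chain known from the kidney, was higher in liver (difference -1.97, adjusted p = 2.42e-04), at 26.2 ± 6.48 in cerebellum and 155 ± 49.1 in liver (SD, n = 3 each).

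The light chains SLC7A5 and SLC7A8, LAT1 and LAT2, and their shared heavy chain SLC3A2 showed smaller differences. SLC7A5 was at 116, 182 and 81.4 in cerebellum, against 67.7, 70.5 and 60.6 in liver (difference 0.73, standard error 0.26, adjusted p = 0.0432), and its lowest cerebellum value was close to its highest liver value. SLC7A5 lost its call when cerebellum array 1 or 2, or liver array 1, 2 or 3, was left out (adjusted p 0.0790 to 0.104). SLC7A8 was at 334, 342 and 295 in cerebellum, against 209, 211 and 243 in liver (difference 0.52, standard error 0.16, adjusted p = 0.0280). SLC7A8 lost its call when cerebellum array 1, 2 or 3, or liver array 1 or 2, was left out (adjusted p 0.0582 to 0.0896). SLC3A2 went the other way, at 209.9, 480.4 and 251 in cerebellum, against 445, 734 and 735 in liver (difference -1.04, standard error 0.33, adjusted p = 0.0272), with overlap, since cerebellum replicate 2 exceeded liver replicate 1. SLC3A2 lost its call when cerebellum array 1 or 3, or liver array 2 or 3, was left out (adjusted p 0.0722 to 0.1003) and after the alignment on general genes (difference -0.47, adjusted p = 0.159). SLC2A1, SLC7A5, SLC3A2 and SLC38A5 were each highest in cerebellum replicate 2 among the cerebella, as were the 8 vessel markers. SLCO1C1 was highest there too (36.2, 62.5 and 54.2), but SLCO1A2, of brain vessels in human, was lowest there (86.8, 42.3 and 51.8). SLCO1A2 followed the order of the oligodendrocyte sums (4884, 1159 and 1752), which were mostly MBP and whose order MAG did not share. The part of either cell type was not tested. Over all features replicate 2 was the highest cerebellum for 39.1%, and over the 111 transporters for 38.7%. SLC7A3, SLC7A4, SLC7A10 and SLC7A13 had differences from -0.32 to 0.22 with adjusted p from 0.171 to 0.952, and SLC7A13 had a cerebellum value below 0.

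**Figure D2:**
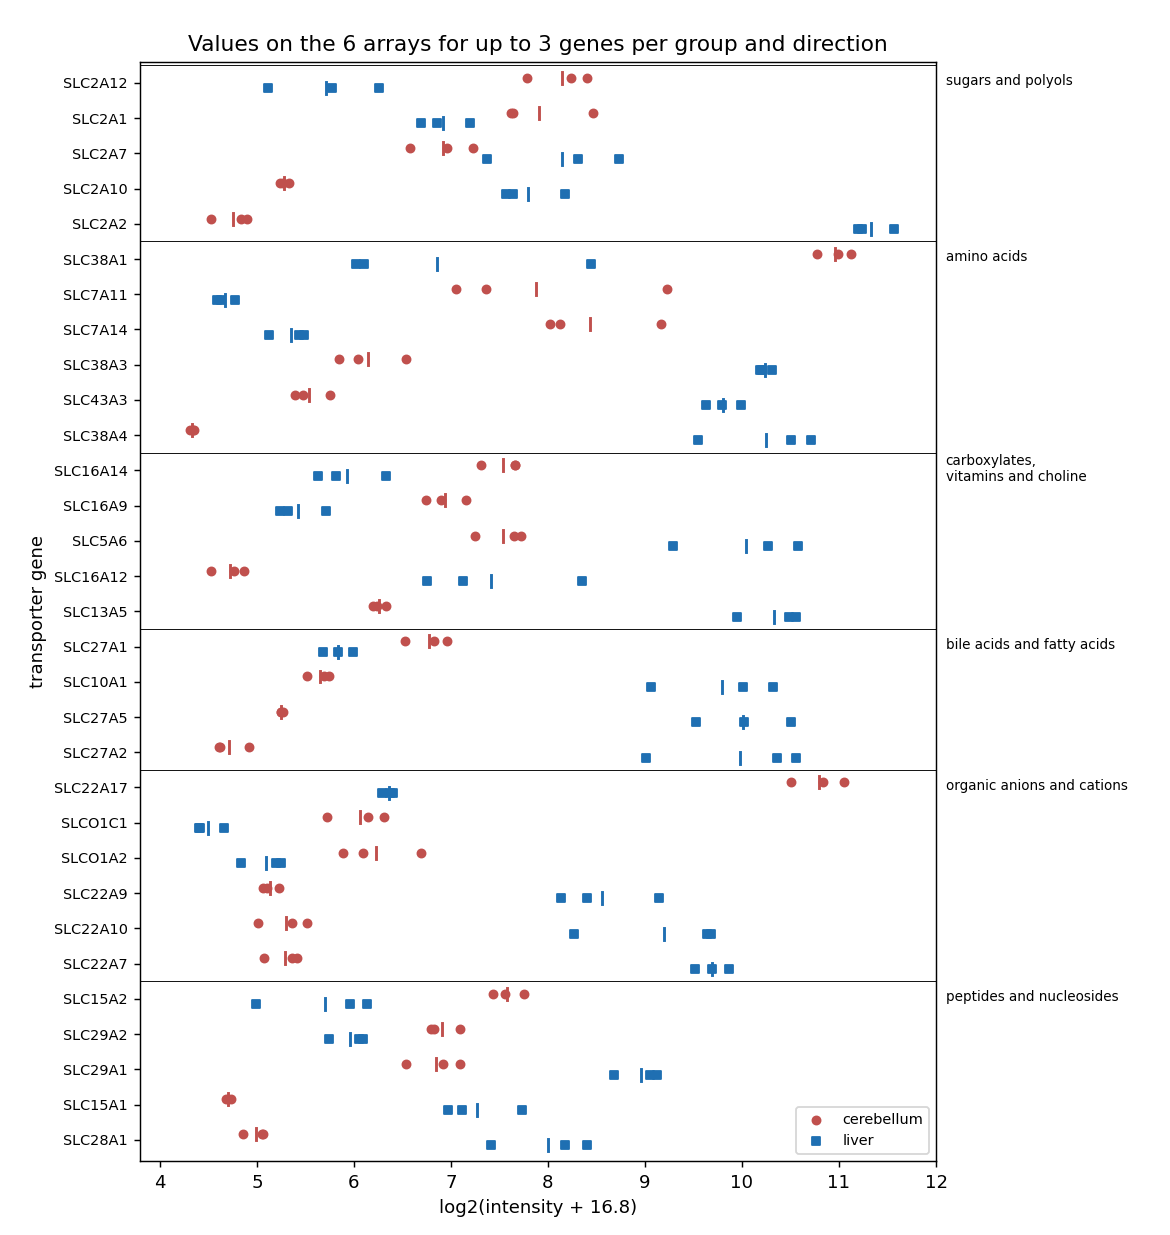
Values on the 6 arrays, as log2(intensity + 16.8), for up to 3 called genes per substrate group and direction with the largest differences, with cerebellum as circles, liver as squares and short vertical bars for the tissue means (n = 3 each). The tissues are fully parted in each gene shown, with liver replicate 3 well above the other livers for SLC38A1 (330.4 in intensity).

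Transporters of carboxylates, vitamins and choline were higher in cerebellum for 2 genes and in liver for 7, of 20 measured, and 11 did not pass. Their shares were 10% and 35%, against 26.7% and 23.9% of all features, and their median difference was -0.45. SLC13A5 encodes the sodium-coupled citrate carrier of hepatocytes and was at 56.6, 58.9 and 63.8 in cerebellum, against 1414, 1489 and 974 in liver (difference -4.07, standard error 0.20, adjusted p = 1.13e-06). SLC5A6, the carrier of biotin and pantothenate, was at 194, 135 and 184 in cerebellum, against 1214, 1507 and 608 in liver (difference -2.50, standard error 0.32, adjusted p = 2.79e-04). In both genes every liver exceeded every cerebellum and liver replicate 3 was the lowest liver. The thiamine carriers SLC19A3 and SLC19A2 were both higher in liver. SLC19A3 was at 20.4, 25.6 and 17.9 in cerebellum, against 127, 106 and 284 in liver (difference -2.20, standard error 0.32, adjusted p = 5.53e-04). SLC19A2 was at 141, 150.0 and 170.1 in cerebellum, against 385, 316 and 196 in liver (difference -0.84, standard error 0.25, adjusted p = 0.0202). Liver replicate 3 was the highest liver for SLC19A3 and the lowest for SLC19A2. SLC19A2 lost its call when cerebellum array 1 or 2, or liver array 1 or 2, was left out (adjusted p 0.0533 to 0.0683) and after the alignment on general genes (difference -0.28, adjusted p = 0.387). The folate carrier SLC19A1 differed by -0.47 (adjusted p = 0.128). SLC19A1 passed the threshold when liver array 3 was left out (difference -0.70, adjusted p = 0.0174).

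Of 8 monocarboxylate family genes, 2 were higher in cerebellum and 3 in liver, where 26.7% and 23.9% of all features were. The genes higher in cerebellum were SLC16A14 and SLC16A9. SLC16A14 was at 142, 185 and 185 in cerebellum, against 32.95, 63.6 and 39.8 in liver (difference 1.61, standard error 0.22, adjusted p = 4.08e-04). SLC16A9 was at 90.6, 126 and 103 in cerebellum, against 21.1, 23.1 and 35.6 in liver (difference 1.51, standard error 0.20, adjusted p = 3.17e-04). Neither overlapped between tissues. SLC16A12, a creatine carrier, was at 12.5, 10.5 and 6.37 in cerebellum, against 310.3, 123 and 91.00 in liver (difference -2.69, standard error 0.37, adjusted p = 4.27e-04). SLC16A13 was at 30.4, 35.6 and 21.3 in cerebellum, against 118, 166 and 267 in liver (difference -2.07, standard error 0.28, adjusted p = 3.59e-04). The livers of both genes spread widely, in opposite order, with replicate 1 the highest for SLC16A12 and the lowest for SLC16A13.

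SLC16A4 passed most narrowly of all 111 genes and overlapped between tissues, at 45.1, 21.4 and 19.5 in cerebellum, against 157, 38.9 and 72.4 in liver (difference -1.11, standard error 0.40, adjusted p = 0.0468). SLC16A4 lost its call when cerebellum array 2 or 3, or liver array 1 or 3, was left out (adjusted p 0.0759 to 0.142), at a pseudocount of 38.3 (difference -0.85, adjusted p = 0.0647) and after the alignment on general genes (difference -0.55, adjusted p = 0.297). SLC16A8, a lactate carrier known from the retina, had the highest mean of the genes of this group that did not pass and was at 305, 279.5 and 300.2 in cerebellum, against 388, 387 and 278 in liver (difference -0.22, standard error 0.19, adjusted p = 0.349). SLC16A10, a carrier of aromatic amino acids, had livers of 323, 145 and 55.2 and a difference of -0.80 with a standard error of 0.52 (adjusted p = 0.236). SLC16A10 passed the threshold when liver array 3 was left out (difference -1.37, adjusted p = 0.0234). SLC16A5, SLC13A1, SLC13A2, SLC13A3, SLC5A5, SLC5A7, SLC5A8 and SLC5A12 had differences from -0.56 to 0.39 with adjusted p from 0.0826 to 0.842. They include SLC5A7, the choline carrier of cholinergic neurons, at -0.18, and SLC5A5, the iodide carrier of the thyroid, at -0.38.

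Genes of bile acid and fatty acid transport were higher in cerebellum for 1 of 12 and in liver for 6, with 5 not past the threshold and a median of -0.68. The called shares were 8.33% and 50%, against 26.7% and 23.9% of all features. SLC10A1 encodes NTCP, which takes bile acids from blood into hepatocytes, and was at 34.9, 36.6 and 29.2 in cerebellum, against 1012, 1257 and 516 in liver (difference -4.14, standard error 0.31, adjusted p = 9.89e-06). SLC27A2 and SLC27A5 encode very long chain and bile acid acyl-CoA synthetases. SLC27A2 was at 7.91, 13.4 and 7.61 in cerebellum, against 1489, 1302 and 499 in liver (difference -5.26, standard error 0.38, adjusted p = 8.18e-06). SLC27A5 was at 21.2, 21.8 and 21.2 in cerebellum, against 1022, 1433 and 719.7 in liver (difference -4.76, standard error 0.25, adjusted p = 1.43e-06). The tissues lay far apart in all 3 genes, and liver replicate 3 was the lowest liver in each. SLC27A3 was at 37.7, 37.9 and 39.00 in cerebellum, against 192, 218 and 125 in liver (difference -1.80, standard error 0.21, adjusted p = 1.72e-04), with the same liver lowest. SLC27A4, a fatty acid carrier of the intestine and skin, was at 159, 156 and 158 in cerebellum, against 328, 312 and 438 in liver (difference -1.09, standard error 0.18, adjusted p = 0.00117), with that liver highest.

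SLC27A1, a fatty acid carrier known from muscle and fat, was the gene of this group higher in cerebellum, at 96.7, 75.2 and 108 in cerebellum, against 46.7, 40.4 and 34.5 in liver (difference 0.94, standard error 0.19, adjusted p = 0.00316). SLC10A3 was higher in liver (difference -0.80, adjusted p = 0.0135), with tissues that did not overlap. SLC10A3 lost its call when cerebellum array 1 or 3 was left out (adjusted p = 0.0516 and 0.0506) and after the alignment on general genes (difference -0.24, adjusted p = 0.408). SLC10A7 had the highest mean of the others and lay just outside the threshold at 67.4, 46.5 and 55.5 in cerebellum, against 109, 99.2 and 66.9 in liver (difference -0.55, standard error 0.21, adjusted p = 0.0580). SLC10A7 passed the threshold when liver array 3 was left out (difference -0.73, adjusted p = 0.0149). The ileal bile acid carrier SLC10A2 had means of 35.7 ± 0.394 in cerebellum and 34.6 ± 11.2 in liver (SD, n = 3 each, difference 0.06, adjusted p = 0.837). SLC10A4, SLC10A6 and SLC27A6 differed by 0.46, 0.50 and 0.29 (adjusted p = 0.113, 0.0937 and 0.264), and no value of SLC10A4 exceeded 27.8. SLC10A6 passed when liver array 2 was left out (adjusted p = 0.0482), and all 3 passed toward cerebellum after the alignment (adjusted p = 0.00398, 0.00439 and 0.0151).

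Organic anion and cation transporters formed the largest group, with 28 genes. Of these 4 were higher in cerebellum, 9 in liver and 15 did not pass, with a median of -0.14. The called shares were 14.3% and 32.1%, against 26.7% and 23.9% of all features. SLC22A17, a member of the organic ion family that binds lipocalin 2 in human and mouse, lay farthest toward cerebellum of all 111 genes, except without liver replicate 3, where SLC38A1 was at 4.90 and SLC22A17 at 4.45. It was at 1433, 2107 and 1811 in cerebellum, against 68.1, 61.7 and 66.00 in liver (difference 4.44, standard error 0.19, adjusted p = 5.31e-07). SLCO1C1, the thyroxine carrier of the blood-brain barrier, was at 36.2, 62.5 and 54.2 in cerebellum, against 8.63, 4.46 and 4.56 in liver (difference 1.57, standard error 0.20, adjusted p = 2.70e-04). SLCO1A2, an organic anion carrier of brain vessels in human, was at 86.8, 42.3 and 51.8 in cerebellum, against 11.8, 21.3 and 19.9 in liver (difference 1.13, standard error 0.24, adjusted p = 0.00463). The cerebella exceeded the livers in all 3 genes. Cerebellum replicate 1 was the lowest cerebellum for SLCO1C1 and the highest for SLCO1A2. SLC22A5, the carnitine carrier OCTN2, was at 194, 163 and 173 in cerebellum, against 113, 81.8 and 86.3 in liver (difference 0.81, standard error 0.18, adjusted p = 0.00536).

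Toward liver, SLC22A7, the hepatic carrier OAT2, was at 25.97, 17.02 and 24.5 in cerebellum, against 808, 713 and 919.5 in liver (difference -4.40, standard error 0.18, adjusted p = 4.68e-07). SLC22A9, SLC22A10 and SLC22A25 are close relatives that lie near each other, and their features may share signal, which was not tested. SLC22A10 was at 24.5, 15.4 and 28.96 in cerebellum, against 783, 803 and 292 in liver (difference -3.90, standard error 0.37, adjusted p = 4.37e-05). SLC22A9 was at 17.5, 16.6 and 20.9 in cerebellum, against 547, 321 and 265 in liver (difference -3.43, standard error 0.26, adjusted p = 1.14e-05). SLC22A25 was at 17.5, 12.5 and 12.4 in cerebellum, against 493, 225 and 167 in liver (difference -3.20, standard error 0.34, adjusted p = 9.26e-05). In these 3 genes liver replicate 3 was the lowest liver, and in SLC22A7 it was the highest. SLCO2B1, an organic anion carrier of the hepatocyte's blood side, was at 46.8, 67.6 and 42.2 in cerebellum, against 703, 699 and 621 in liver (difference -3.34, standard error 0.19, adjusted p = 2.44e-06), with livers close together. The prostaglandin carrier SLCO2A1 differed by -1.37 (adjusted p = 2.25e-04), at 17.6 ± 1.75 in cerebellum and 72.4 ± 11.9 in liver (SD, n = 3 each).

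The remaining calls toward liver in this group were those of dim features. SLC22A8, the renal carrier OAT3, was at 21.2 ± 2.26 in cerebellum and 41.5 ± 8.59 in liver (SD, n = 3 each), with a difference of -0.61 (adjusted p = 0.0197). SLC22A8 lost its call when cerebellum array 3, or liver array 2, was left out (adjusted p = 0.0821 and 0.0690) and after the alignment on general genes (difference -0.05, adjusted p = 0.831). SLCO4C1 was at 2.88, -1.37 and 4.70 in cerebellum, against 42.2, 7.26 and 53.5 in liver (difference -1.27, standard error 0.37, adjusted p = 0.0202). SLCO4C1 lost its call when cerebellum array 1 or 2, or liver array 1 or 3, was left out (adjusted p 0.0526 to 0.0663) and after the alignment on general genes (difference -0.71, adjusted p = 0.144). SLCO6A1, known from testis, stayed below the pseudocount of 16.8 on all 6 arrays, at 0.333, 3.99 and 1.79 in cerebellum, against 7.89, 13.4 and 15.9 in liver (difference -0.63, standard error 0.18, adjusted p = 0.0193). SLCO6A1 lost its call when cerebellum array 1 or 3, or liver array 2, was left out (adjusted p 0.0587 to 0.0757), at a pseudocount of 38.3 (difference -0.33, adjusted p = 0.0665) and after the alignment on general genes (difference -0.07, adjusted p = 0.758). SLCO5A1 was also dim, with means of 5.13 in cerebellum and 7.41 in liver.

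SLC22A6, the renal carrier OAT1, lay outside the threshold at 88.4, 135 and 127 in cerebellum, against 296, 289.9 and 119 in liver (difference -0.84, standard error 0.33, adjusted p = 0.0664). SLC22A6 passed the threshold when liver array 3 was left out (difference -1.23, adjusted p = 0.00212). SLC22A12, the renal urate carrier, had the highest mean of the genes of this group that did not pass, at 228, 276 and 228 in cerebellum, against 270.1, 314 and 234 in liver (difference -0.15, standard error 0.18, adjusted p = 0.535). SLC22A11 had cerebella of 358, 123 and 265 and livers of 169, 103 and 130.2 (difference 0.72, adjusted p = 0.120). SLC22A11 passed the threshold when cerebellum array 2 was left out (difference 1.13, adjusted p = 0.00914) and after the alignment on general genes (difference 1.29, adjusted p = 0.0201). The other SLC22A genes, namely SLC22A2, SLC22A4, SLC22A13, SLC22A14, SLC22A15, SLC22A16, SLC22A20P and SLC22A24, had differences from -0.41 to 0.46 with adjusted p from 0.0714 to 0.942. SLCO3A1, SLCO4A1, SLCO5A1 and SLC47A2 had differences from -0.13 to 0.50 with adjusted p from 0.142 to 0.568.

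Of 10 peptide and nucleoside transporters, 2 were higher in cerebellum, 4 in liver and 4 did not pass, with a median of -0.47. The called shares were 20% and 40%, against 26.7% and 23.9% of all features. The proton-coupled peptide carriers SLC15A2 and SLC15A1 were called in opposite directions. SLC15A2, which encodes PEPT2 and is known from astrocytes, was at 171, 199 and 156 in cerebellum, against 45.7, 15.1 and 53.6 in liver (difference 1.88, standard error 0.30, adjusted p = 8.65e-04). SLC15A1, which encodes the intestinal carrier PEPT1, was at 9.32, 8.92 and 9.88 in cerebellum, against 122, 108 and 196 in liver (difference -2.56, standard error 0.22, adjusted p = 2.60e-05). Of 4 equilibrative nucleoside carriers, SLC29A2 and SLC29A1 were called in opposite directions and 2 did not pass. SLC29A2, or ENT2, was at 120.0, 96.6 and 94.6 in cerebellum, against 49.4, 36.7 and 51.6 in liver (difference 0.95, standard error 0.18, adjusted p = 0.00261). SLC29A1, or ENT1, was at 119.5, 76.4 and 104 in cerebellum, against 543, 395 and 514 in liver (difference -2.11, standard error 0.21, adjusted p = 6.00e-05). None of these 4 genes overlapped between tissues.

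The sodium-coupled nucleoside carriers SLC28A1 and SLC28A2 were both higher in liver. SLC28A1 was at 16.7, 12.3 and 16.5 in cerebellum, against 322, 272 and 154 in liver (difference -3.004, standard error 0.26, adjusted p = 2.55e-05). SLC28A2 was at 20.5, 20.1 and 14.8 in cerebellum, against 95.2, 104 and 78.9 in liver (difference -1.63, standard error 0.17, adjusted p = 8.97e-05). SLC28A3 differed by -0.54 (adjusted p = 0.0675), with livers all above cerebella. SLC28A3 passed the threshold when liver array 1 was left out (difference -0.75, adjusted p = 0.00983) and at a pseudocount of 4.20 (difference -0.85, adjusted p = 0.0443). SLC15A4, a lysosomal carrier of histidine and peptides, had the highest mean of the genes of this group that did not pass and was at 260.3, 296 and 228 in cerebellum, against 253, 260.0 and 427 in liver (difference -0.21, standard error 0.23, adjusted p = 0.474). SLC29A3, a lysosomal nucleoside carrier, had livers of 67.6, 49.8 and 126 and SLC15A4 had 427 in the same replicate 3. The 7 macrophage markers were highest in that liver too, as were 4 of 5 bile duct, 5 of 8 vessel and 2 of 3 red cell markers. The part of these cell types in both levels was not tested. SLC29A4 differed by 0.43 (adjusted p = 0.0863). SLC29A4 passed the threshold when liver array 3 was left out (difference 0.58, adjusted p = 0.0217) and after the alignment on general genes (difference 1.00, adjusted p = 0.00299).

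In 9 of the 17 families at least 1 gene was higher in each tissue, and in 13 after the alignment on general genes, which added SLC5A, SLC10A, SLC13A and SLC43A. The 9 families had 3 to 18 members and the others 1 to 8. Over all features 26.7% and 23.9% were called toward cerebellum and liver. How far family size sets the count was not tested. In SLC38A the differences ran from 4.11 for SLC38A1 to -5.92 for SLC38A4, whose cerebellum values lie under the pseudocount. In SLC2A they ran from 2.43 for SLC2A12 to -6.58 for SLC2A2, and in SLC22A from 4.44 for SLC22A17 to -4.40 for SLC22A7. SLC7A, SLC27A, SLCO, SLC15A, SLC16A and SLC29A also held both. SLC10A, SLC19A, SLC28A and SLC43A had 0 genes higher in cerebellum and 2 each higher in liver on the deposited scale. After the alignment the counts in cerebellum and in liver were 3 and 1 for SLC10A, 0 and 1 for SLC19A, 0 and 2 for SLC28A and 1 and 2 for SLC43A.

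**Figure D3:**
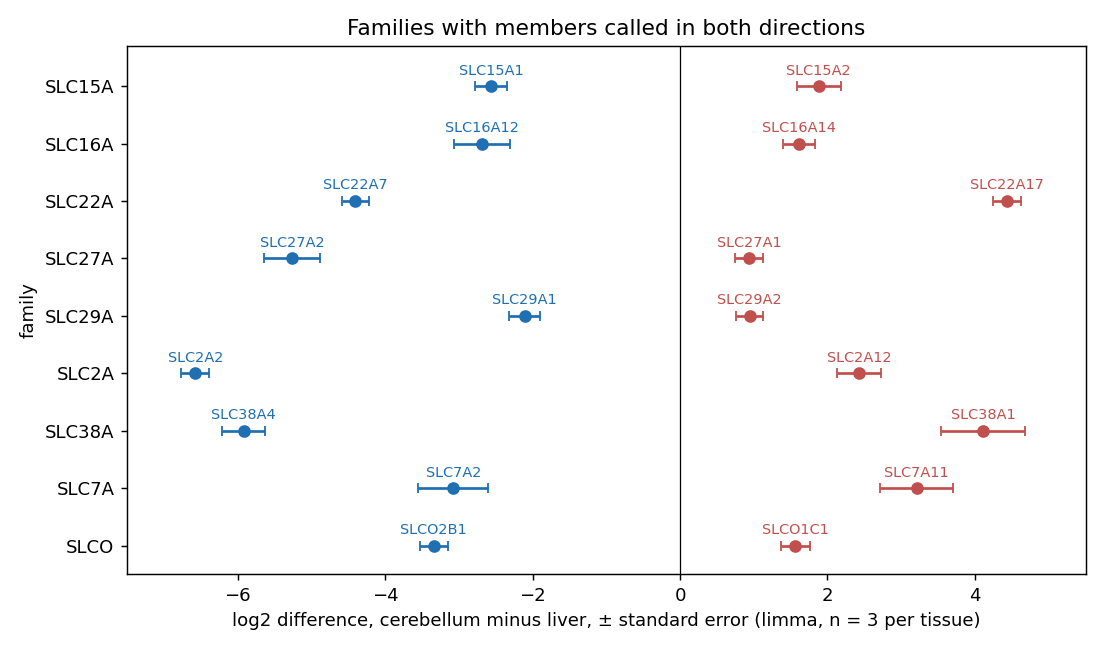
For the 9 families with calls in both directions, the called gene with the largest log2 difference toward cerebellum (right) and toward liver (left), each with its standard error from limma (n = 3 per tissue). SLC38A1 and SLC38A4 lie at 4.11 and -5.92, the second with cerebellum values under the pseudocount.

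Genes that neighbour each other did not always share a direction. In the RefSeq gene table of the chimpanzee assembly NHGRI_mPanTro3-v2.0_pri, 21 pairs of these transporters had at most 2 protein-coding genes between them. SLC38A4, SLC38A2 and SLC38A1 are consecutive there, and their differences were -5.92, 0.41 (not called) and 4.11. SLC2A5 and SLC2A7 are adjacent and differed by 0.46 (not called) and -1.22. SLC22A4 and SLC22A5, adjacent carriers of ergothioneine and carnitine, differed by 0.04 (not called) and 0.81. SLC7A14 and SLC2A2, with 2 genes between them, differed by 3.09 and -6.58. SLC43A3 and SLC43A1, with 1 gene between them, were both higher in liver. In the cluster of SLC22A6, SLC22A8, SLC22A24, SLC22A25, SLC22A10 and SLC22A9 the differences were -0.84, -0.61, 0.13, -3.20, -3.90 and -3.43. SLC22A6 and SLC22A24 were not called. Where both genes of a pair were called, SLC38A4 with SLC38A1 and SLC7A14 with SLC2A2 went opposite ways. All other such pairs were higher in liver.

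The livers varied more among themselves than the cerebella. The median SD of the log2 level over 3 arrays was 0.17 in cerebellum and 0.34 in liver for the transporters, against 0.20 and 0.26 for all features. The liver SD was the larger of the 2 for 84 of 111 transporters (75.7%) and for 62.2% of all features. Liver replicate 3 was the lowest liver for 60 of 111 transporters (54.1%), where the share over all features was 37.3%, and the highest for 29 (26.1%, against 34.4%). Among the 18 genes higher in cerebellum it was the lowest for 3 (16.7%) and the highest for 8 (44.4%). Among the 41 higher in liver it was the lowest for 24 (58.5%) and the highest for 10 (24.4%). Among the 52 not called it was the lowest for 33 (63.5%) and the highest for 11 (21.2%).

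The low values of liver replicate 3 were not spread evenly over the substrate groups. Against the mean of the other 2 livers its median shift (log2) was -0.56 for bile acid and fatty acid genes and -0.51 for carboxylate, vitamin and choline genes. It was -0.19 for sugar genes, -0.15 for organic ions, -0.08 for amino acids and 0.36 for peptides and nucleosides, against -0.02 over all features. The shift was highest for SLC38A1, at 2.38, and lowest for SLC16A10, at -1.71. Hepatocyte markers were mixed in this array: ALB and APOB were the highest of the livers there, while FGB, CPS1, TAT and CYP3A4 were the lowest. Of 5 bile duct markers 4 were highest in it. The part of these cell types in the shifts was not tested. Without liver replicate 3, 21 transporters (18.9%) were higher in cerebellum and 45 (40.5%) in liver, against 26.2% and 24.5% of all features. The 11 genes that passed without it were SLC5A5, SLC10A7, SLC13A3, SLC16A5, SLC16A10, SLC19A1, SLC22A6, SLC22A20P, SLC29A4, SLC38A5 and SLCO3A1.

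**Figure D4:**
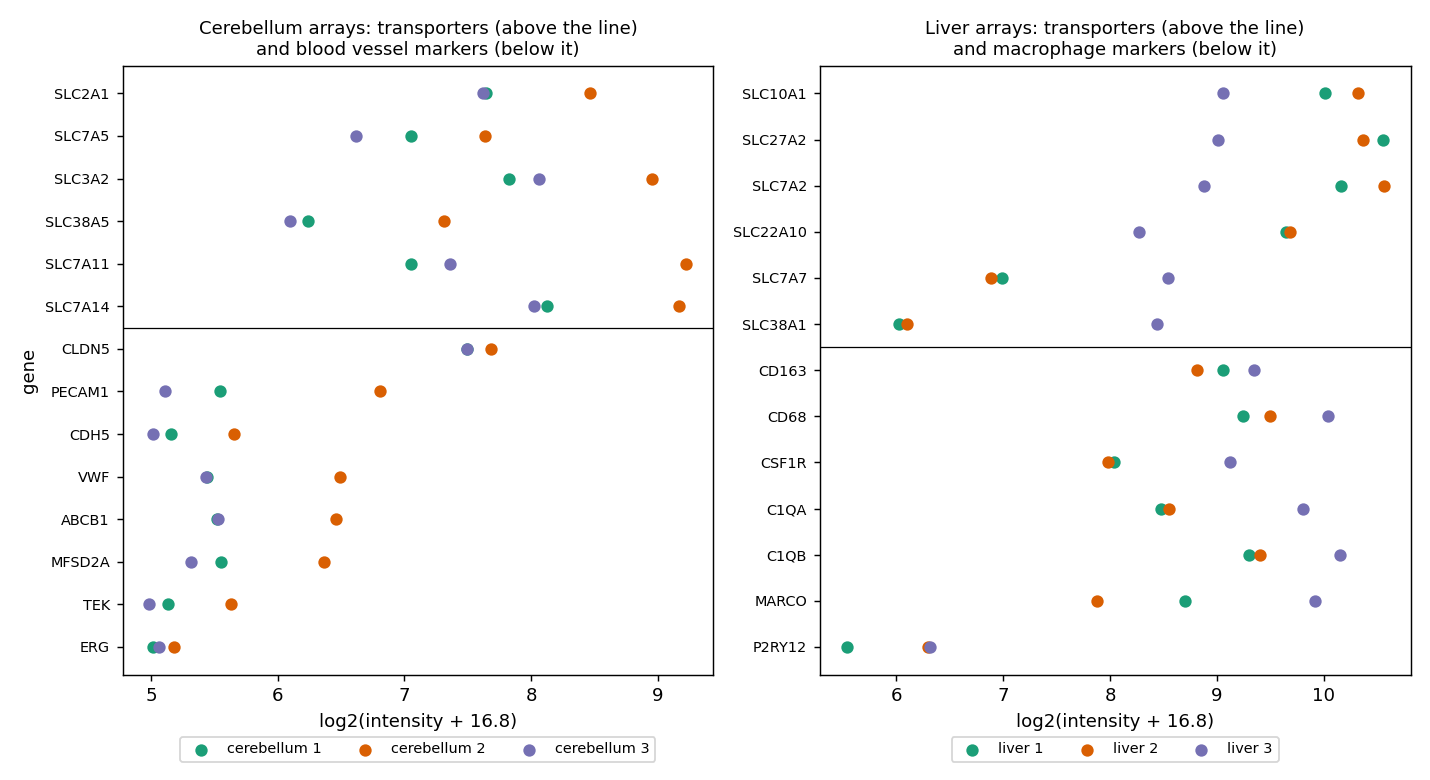
Values of single arrays as log2(intensity + 16.8), for cerebellum on the left and liver on the right, with 6 transporters chosen after their values were seen above each line and marker genes below it. Cerebellum replicate 2 is the highest cerebellum in all rows on the left, and liver replicate 3 is lowest for SLC10A1, SLC27A2, SLC7A2 and SLC22A10 and highest for SLC7A7, SLC38A1 and the macrophage markers.

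Genes that handle the same substrates inside the cell or move them onward also differed between tissues. Of 48 listed partner genes 27 were measured, and 5 were higher in cerebellum and 15 in liver (limma, adjusted p under 0.05), with a median difference of -1.49. These are 18.5% and 55.6% of the partners measured, where 26.7% and 23.9% of all features were called. After the alignment 7 and 14 were called, or 25.9% and 51.9%, against 49.7% and 13.7% of all features, and LDHA lost its call. Hexokinase HK1 was at 210, 297 and 298 in cerebellum, against 40.4, 49.3 and 81.0 in liver (difference 1.97, adjusted p = 2.19e-04). GCKR, which regulates glucokinase, and G6PC1, which frees glucose for export through SLC2A2, differed by -3.43 and -6.05. Lactate dehydrogenase LDHB was higher in cerebellum (difference 3.999) and LDHA was higher in liver (difference -1.04). Glutamine synthetase GLUL, whose product SLC38A3 and SLC38A1 carry, was at 5389, 4900.04 and 5922 in cerebellum, against 1864, 2557 and 2203 in liver (difference 1.29, adjusted p = 4.93e-04).

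Partners of bile acid and fatty acid transport were higher in cerebellum for 2 of 11 measured genes and in liver for 7. BAAT, which conjugates bile acids, and the canalicular exporters ABCB11, ABCB4 and ABCC2 differed by -4.67, -4.04, -4.65 and -4.16. FABP7, the fatty acid binding protein of brain glia, and the brain acyl-CoA synthetase ACSL6 were higher in cerebellum, with differences of 4.83 and 2.12, while ACSL1 was higher in liver (difference -2.99). SLC51B, a subunit of the basolateral bile acid exporter, had livers of 8.02, 12.2 and 268, the last in replicate 3. BSG, or basigin, the chaperone of several SLC16A carriers, was at 476, 1003 and 696 in cerebellum, against 738, 617 and 721 in liver (difference 0.01, adjusted p = 0.986). Adenosine kinase ADK and cytidine deaminase CDA, which act on nucleosides after uptake, were higher in liver, with differences of -1.82 and -3.09.

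Some transporters had no clear signal in either tissue. For 19 of the 111 genes both tissue means lay under 38.3, the 25th percentile of all values, and for 9 both lay under 16.8. Whether the probes of these genes can measure them in chimpanzee was not tested. Of 666 values of these genes 2 lay below 0.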

How the data were processed

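Total RNA was extracted with TRIzol, depleted of ribosomal RNA and labelled as biotinylated sense-strand DNA for the arrays, per the labels' protocols. The deposited values are linear intensities after background subtraction and quantile normalization. Both steps were read from the values: 93 lie below 0 on each array, and all 6 arrays hold the same sorted set, from -169.95 to 6527. The submitters' processing notes name GCOS, with no version. How probes were combined into features is not given in the sources used here. Precision is limited by the 3 arrays per tissue.

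Feature names came from the platform's annotation: 12685 features had 1 symbol, 1780 several and 678 none. Of the 111 symbols, 109 matched the RefSeq gene table, which served only for names and neighbours. Values below 0 were set to 0, 16.8 (the 10th percentile of all values) was added and log2 taken. Limma 3.58.1 in R 4.3.3 (lmFit and eBayes) compared cerebellum with liver without a block. Benjamini-Hochberg adjustment was over all 15143 features, with a threshold of 0.05. The fit was also run on simulated data with far fewer changed features than were called here. That run does not test the calls given here. A permutation of 3 against 3 cannot give a two-sided p below 0.1, so none was run on single genes.

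Every gene could be named. Values on every array are given for up to 5 called genes per group and direction, the gene with the highest mean among those not past the threshold in each group, and the 3 genes nearest the threshold on either side. Further genes shown were chosen after their values were seen. Among the transporters these were SLC3A2, SLC5A11, SLC7A7, SLC19A2, SLC22A11, SLC38A5, SLC38A6, SLC38A7, SLC38A12, SLCO4C1 and SLCO6A1. So were SLC16A10 and SLC29A3, for which liver values are given. Genes, substrate groups, markers and partners were chosen with earlier results of these data known. Alternatives were other pseudocounts, a filter on dim features, alignment on general genes, a trended and robust prior, a replicate block, a 2-fold minimum and leaving out each array. Sequences of these genes were not used here.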

Additional observations from a re-analysis of the deposited data

How the results depend on the processing

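No direction of a called gene turned under any alternative tried. Leaving aside the 2-fold minimum, 45 of 59 called transporters kept their call under every alternative that tests them and 14 lost it under at least 1. Aligning on general genes gave 42 transporters higher in cerebellum and 31 in liver, and 7531 and 2074 of all features. Requiring at least 2-fold gave 11 and 35, and 2600 and 2397 of all features. Leaving out each array in turn gave 15 to 21 transporters higher in cerebellum and 35 to 45 in liver, and 3285 to 3966 and 2828 to 3704 of all features. A pseudocount of 4.20 gave 19 and 44, and 4005 and 3650 of all features. One of 38.3 gave 18 and 39, and 4007 and 3503 of all features. The filter on dim features kept 79 of the transporters and gave 16 and 37, and 3545 and 3152 of the 11357 features it kept. The trended, robust prior gave 19 and 42, and 4094 and 3661 of all features.

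With replicate number as a block, 19 transporters were higher in cerebellum and 43 in liver, and 3994 and 3538 of all features. SLC7A8 lost its call (adjusted p = 0.0616), and SLC16A5, SLC22A11, SLC5A1 and SLC5A11 passed (limma, adjusted p = 0.0484, 0.0328, 0.0420 and 0.0314). The labels share sex and age by number but do not state that equal numbers are 1 animal. Deviations from the tissue mean correlated at 0.11, 0.16 and -0.14 for equal-numbered arrays and at -0.25 to 0.24 for the others. With 3 arrays per tissue these values cannot show whether equal numbers are 1 animal. The main fit had no block because the labels state no pairing.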
